A study of Saccharomyces cerevisiae with 6 samples.

Results

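The genes described here are the 7 of siderophore-iron uptake in budding yeast, the siderophore transporters ARN1, ARN2, SIT1 and ENB1 (4 genes) and the cell wall mannoproteins FIT1, FIT2 and FIT3 (3 genes). They were chosen by name, and all 7 were among the 5449 genes measured, each by 1 probe set, the group of probes that stands for a transcript on the array. Total RNA of wild type cells of strain BY4741 was compared with that of strain Y05072, labelled as the vps1Δ mutant, on 3 Affymetrix expression arrays per strain. Growth of both strains was in supplemented minimal medium at 30 degrees, and the labels name no iron chelator, added iron or siderophore. The series' design text calls the 3 cultures of a strain independent biological replicates. All 3 deletion cultures carry the same strain name, so the loss of VPS1 and any other difference of that strain from BY4741 cannot be told apart.

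Siderophores are small iron chelators that microbes secrete to capture ferric iron. Budding yeast makes none of its own but takes up the iron-loaded siderophores of other species through the ARN family of major facilitator transporters, while the FIT proteins, anchored in the wall, help to hold siderophore-iron near the cell. Both groups are targets of Aft1, the transcription factor that turns on iron uptake when iron is scarce. Arn transporters travel through the Golgi apparatus and endosomes, and VPS1 encodes a dynamin-like GTPase that acts in sorting from the Golgi to the vacuole and in endocytosis. The comparison asks which transcripts change in cells without this dynamin under normal growth.

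The VPS1 probe set checked the strain labels. Its log2 level was 10.32, 9.98 and 9.95 on the wild type arrays and 2.54, 2.40 and 2.23 on the deletion arrays, where it lay below background, at least 91.5-fold lower. Background was the 95th percentile, per array, of 1746 probe sets whose gene names are not in the yeast gene table, between 3.53 and 3.59. As deposited, values on the deletion arrays were higher as a whole, with a median log2 difference of 0.51 over genes, 0.48 over the background probe sets and 0.60 over 27 hybridization control probe sets. Levels and differences are therefore given on the log2 scale after quantile normalization of all probe sets (the quantile scale), on which all genes had a median difference of -0.04, and a change shared by most genes cannot be seen on it. All 7 a-specific genes, which mark the mating type of BY4741, were above background on every array. Of these, 5 passed as lower in the deletion strain by the test described below, as did 6.28% of all genes, and STE6 and MFA1 did not pass. The mean log2 level of the list ranged from 11.48 to 11.67 in wild type and from 10.76 to 10.85 in the deletion strain. The 4 alpha-specific genes had list means of 6.03 to 6.14 and 6.08 to 6.28. STE3 passed as higher, by 0.54 (limma adjusted p = 0.0466), as did 6.77% of all genes. SAG1 (0.37), MF(ALPHA)1 (-0.38) and MF(ALPHA)2 (-0.13) did not pass. None of the 4 alpha-specific genes was at or below background, and the part of the mating type genes in the results was not tested.

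All 4 siderophore transporter genes rose in the deletion strain, and none of the 3 FIT genes passed the test in either direction. The transporters rose by 0.95 to 1.79 on the log2 scale, which is 1.93-fold to 3.47-fold. The test was limma's moderated test of deletion against wild type, 2-sided, with n = 3 arrays per strain and Benjamini-Hochberg adjustment over all 5449 genes at a threshold of 0.05. Over all genes tested, 6.77% were called higher and 6.28% lower, against 4 and 0 of these 7. In a fit with replicate as a block, 14.4% of all genes were called higher and 16.4% lower, and the calls of the 7 were the same. At least 2-fold higher by this test were 2.15% of all genes, and ARN1, ARN2 and SIT1, 3 of the 7.

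ARN2 transports triacetylfusarinine C, a fungal siderophore. Its log2 level on the quantile scale was 8.41, 8.63 and 8.21 in wild type and 9.73, 10.53 and 10.37 in the deletion strain. Every deletion array lay above every wild type array, and the deletion arrays differed more among themselves (SD 0.42) than the wild type arrays did (SD 0.21). The difference was 1.79 ± 0.21 (log2, SE, limma adjusted p = 0.00203), the largest of the 7.

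SIT1, also named ARN3, encodes the ferrioxamine B transporter. Its log2 level was 9.09, 9.50 and 9.24 in wild type and 10.53, 11.20 and 11.10 in the deletion strain. The groups did not overlap, and the lowest deletion array lay 1.03 above the highest wild type array. The difference was 1.67 ± 0.19 (log2, SE, limma adjusted p = 0.00183).

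ARN1, a transporter of ferrichrome-type siderophores, had the tightest wild type values of the 4, with log2 levels of 8.69, 8.64 and 8.62. In the deletion strain it lay at 9.71, 9.82 and 10.06. The wild type SD of 0.04 and the deletion SD of 0.18 were both far below the difference of 1.21 ± 0.11 (log2, SE), and of the 7 genes ARN1 had the smallest adjusted p (6.14e-04, limma).

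ENB1, also named ARN4, encodes the transporter of enterobactin, a bacterial siderophore. Its log2 level was 8.47, 8.67 and 8.51 in wild type and 9.08, 9.55 and 9.85 in the deletion strain. The groups did not overlap, although the gap between the nearest arrays, 0.41, was narrower than for the other transporters. The difference was 0.95 ± 0.19 (log2, SE, limma adjusted p = 0.0171). This call depended on single arrays, since the limma adjusted p was 0.0516 without wild type replicate 3 and 0.0576 without vps1 deletion replicate 2, at differences of 0.92 in both cases.

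FIT2 is a short mannoprotein gene next to FIT3 on chromosome XV. Its log2 level was 9.09, 8.66 and 8.72 in wild type and 9.11, 9.11 and 9.96 in the deletion strain. No deletion array lay below a wild type array, but the nearest arrays were only 0.01 apart, and deletion replicate 3 stood well above the other two. The difference of 0.57 ± 0.24 (log2, SE) did not pass over all genes (limma adjusted p = 0.170, unadjusted p = 0.0485), with a 95% interval from 0.0049 to 1.14. Without vps1 deletion replicate 3 the difference was 0.29.

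FIT3, its neighbour, had log2 levels of 10.20, 10.15 and 9.63 in wild type and 9.86, 9.89 and 10.14 in the deletion strain. These ranges overlapped widely. The difference was -0.03 ± 0.17 (log2, SE, limma adjusted p = 0.931), with a 95% interval from -0.42 to 0.36.

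FIT1, on chromosome IV, had log2 levels of 6.57, 6.46 and 6.43 in wild type and 6.56, 6.32 and 6.50 in the deletion strain, all well above background. The groups overlapped, and the difference of -0.03 ± 0.10 (log2, SE, limma adjusted p = 0.904) had a 95% interval from -0.26 to 0.21. Neither this interval nor that of FIT3 reached the smallest rise among the transporters, the 0.95 of ENB1. The interval of FIT2, from 0.0049 to 1.14, did reach it, and the 95% interval of ENB1 itself ran from 0.51 to 1.38.

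**Figure D1:**
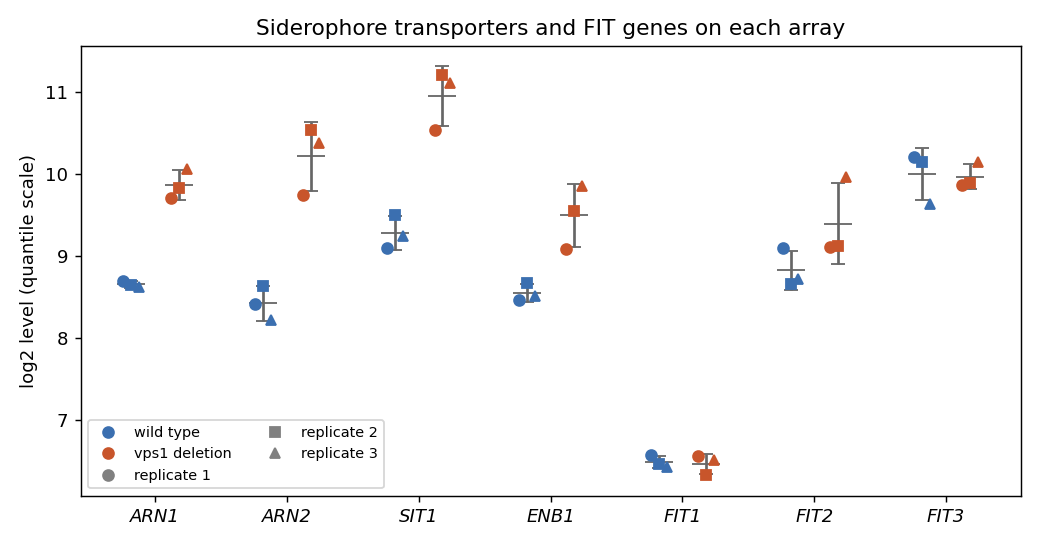
Log2 level on the quantile scale (vertical axis) of the 7 genes on each of the 6 arrays, wild type in blue and vps1 deletion in orange, with symbols for the replicate number and bars for the mean ± SD (n = 3). The deletion arrays stand above all wild type arrays for ARN1, ARN2, SIT1 and ENB1, and by only 0.01 for FIT2, while FIT1 and FIT3 overlap.

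The groups did not overlap, with deletion higher, for 5 of the 7 genes, the 4 transporters and FIT2, as for 15.0% of all genes, and with deletion lower for none, as for 19.0% of all genes. The replicate numbers pair the cultures of the strains by their shared deviations over genes, less clearly for number 3. In same-numbered pairs, ARN1 was higher in the deletion strain by 1.01, 1.18 and 1.44, ARN2 by 1.33, 1.90 and 2.16, SIT1 by 1.44, 1.70 and 1.86 and ENB1 by 0.62, 0.88 and 1.34 (log2). FIT2 was higher in all 3 pairs too, by 0.01, 0.46 and 1.24, whereas FIT3 differed by -0.34, -0.26 and 0.51 and FIT1 by -0.01, -0.14 and 0.08. Deletion replicate 1 was the lowest deletion array for 6 of the 7 genes, all but FIT1. For FIT2 it lay at 9.106, close below the 9.113 of deletion replicate 2, and as deposited replicate 2 was the lower. The share of all genes with this order was not counted. In RNA from whole cultures, a change in every cell and a change in a share of the cells cannot be told apart.

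The rank of a gene among all genes on its own array is hardly touched by the scaling between arrays. SIT1 stood at percentiles of 38.0, 47.8 and 41.6 in wild type and 70.0, 80.7 and 79.4 in the deletion strain. ARN2 moved from 24.1, 28.1 and 21.3 to 53.6, 70.2 and 67.0, and ARN1 from 29.2, 28.3 and 27.9 to 53.1, 55.6 and 60.9. ENB1, at 25.1, 28.8 and 25.9 in wild type, stood at 38.0, 49.2 and 56.1 in the deletion strain. Each transporter thus lay below the middle of the genes on every wild type array. ARN1, ARN2 and SIT1 lay above it on all 3 deletion arrays and ENB1 on 1. FIT2 went from 38.0, 28.5 and 29.8 to 38.4, 38.5 and 58.7. FIT3 lay between 51.2 and 63.5 and FIT1 between 7.45 and 8.30 over all 6 arrays. These percentiles come from 1 probe set per gene, whose brightness also depends on its probes, so they set no gene's abundance against another's.

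Among the differences of all 5449 genes, ordered from the largest rise, ARN2 ranked 29, SIT1 38, ARN1 75 and ENB1 144. FIT2 ranked 319, and FIT1 and FIT3 ranked 2574 and 2609, close to the middle. The median difference of the 7 genes was 0.95, that of the 4 transporters 1.44 and that of the 3 FIT genes -0.03, against -0.04 for all genes.

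**Figure D2:**
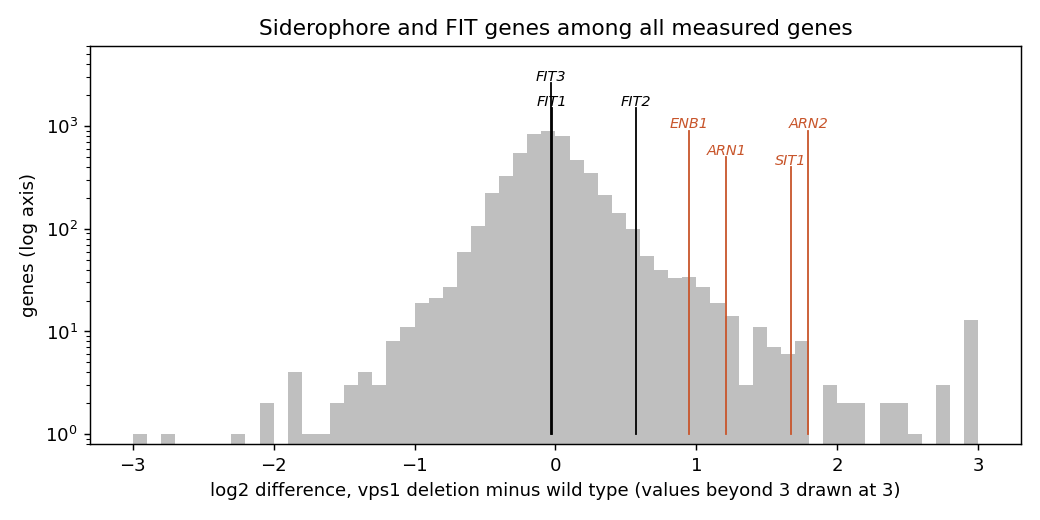
Histogram of the log2 difference between vps1 deletion and wild type for all 5449 genes (horizontal axis, number of genes on a log axis), with lines at the 7 genes. Orange lines mark the 4 transporters, which passed the test and lie in the right tail at 0.95 to 1.79, and black lines mark the FIT genes, of which FIT1 and FIT3 lie at -0.03, near the median of -0.04.

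Differences between the changes of these genes were compared within arrays, as the log2 value of one gene minus that of another, for all 21 pairs. In 16 pairs the 3 deletion arrays did not overlap with the 3 wild type arrays, as in 35.9% of all pairs of measured genes, and 11 of the 12 pairs of a transporter and a FIT gene were among them. The exception was ENB1 and FIT2, whose changes differed by 0.37 ± 0.25 (SE). An exact permutation test, 2-sided, of 3 against 3 arrays cannot give a p below 0.1, and the smallest adjusted p over the 21 pairs was 0.131, so no pair passed. The changes of ARN2 and SIT1 differed by 0.13 ± 0.11, with overlapping arrays. Without overlap, the change of ENB1 was smaller than that of ARN2, by 0.85 ± 0.16, and than that of SIT1, by 0.72 ± 0.13. The changes of FIT2 and its neighbour FIT3 differed by 0.60 ± 0.26. The transporters are homologous proteins, and the share of signal that a related transcript gives on a probe set was not tested.

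The other genes of iron uptake and its control, 31 in all, were counted from lists of reductive and low-affinity uptake and of iron regulation and use. Of the 31, 9 rose, 2 fell and 20 did not pass, against the 6.77% and 6.28% of all genes, and their median difference was 0.10. In the fit with replicate as a block 12 rose and 4 fell, against the 14.4% and 16.4% of all genes in that fit. Of the 14 genes in the list of reductive and low-affinity uptake, which also holds low-affinity, vacuolar and copper-delivery genes, 5 rose and none fell. In reductive uptake, ferric iron is reduced at the surface and carried in by an oxidase and a permease. FRE1, a ferric reductase, rose from 9.22, 9.96 and 10.13 to 10.57, 11.40 and 11.25, a difference of 1.31 ± 0.29 (log2, SE, limma adjusted p = 0.0259). FRE4, a reductase that acts on siderophore-bound iron, rose by 0.93 ± 0.13. FTR1, the high-affinity iron permease, rose by 0.77 ± 0.10, and its partner FET3, the multicopper oxidase, by 0.43 ± 0.11. CCC2, which delivers copper to that oxidase in the Golgi, rose by 0.52 ± 0.13. FRE3, another reductase of siderophore iron, differed by -0.46 ± 0.13 and did not pass (limma adjusted p = 0.0584), although it passed in the fit with replicate as a block (limma adjusted p = 0.00788).

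Of 17 genes of iron regulation and use, 4 rose and 2 fell, against the 6.77% and 6.28% of all genes. Their median difference was 0.03, and 9 of the 17 differences were positive. AFT1, the activator of the uptake genes, lay at 8.46, 8.34 and 8.32 in wild type and at 8.90, 8.88 and 8.87 in the deletion strain. The groups did not overlap, and AFT1 rose by 0.51 ± 0.09 (log2, SE, limma adjusted p = 0.00946). Its paralogue AFT2 differed by -0.12 ± 0.13 and did not pass. TIS11, also called CTH2, an RNA-binding protein that lowers messages of iron-using proteins, rose by 2.57 ± 0.14, more than any of the 7 siderophore and FIT genes in value. HMX1, a haem oxygenase, rose by 0.54 ± 0.13 and MRS3, a mitochondrial iron carrier, by 0.39 ± 0.09. ISU2, an iron-sulphur cluster scaffold, fell by 0.98 ± 0.14 and VHT1, a biotin transporter, fell by 0.63 ± 0.14. Of these 11 calls, 5 were kept whichever single array was left out, those of FRE4, FTR1, AFT1, TIS11 and ISU2. The number of risers was 8 without wild type replicate 1, 4 without wild type replicate 2, 5 without wild type replicate 3. Leaving out vps1 deletion replicate 1, 2 or 3 gave 6, 5 and 4. In the same fits, in this order, 432, 222, 284, 227, 266 and 199 of all 5449 genes were called higher, against 369 with all arrays. With arrays centred on their median, or on hybridization controls, 4 rose, and FET3, CCC2, AFT1, HMX1 and MRS3 did not pass, AFT1 with limma adjusted p of 0.0568 and 0.211. Under these scalings, in this order, 256 and 246 of all 5449 genes were called higher, against 369 on the quantile scale. As deposited, VHT1 differed by -0.08.

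**Figure D3:**
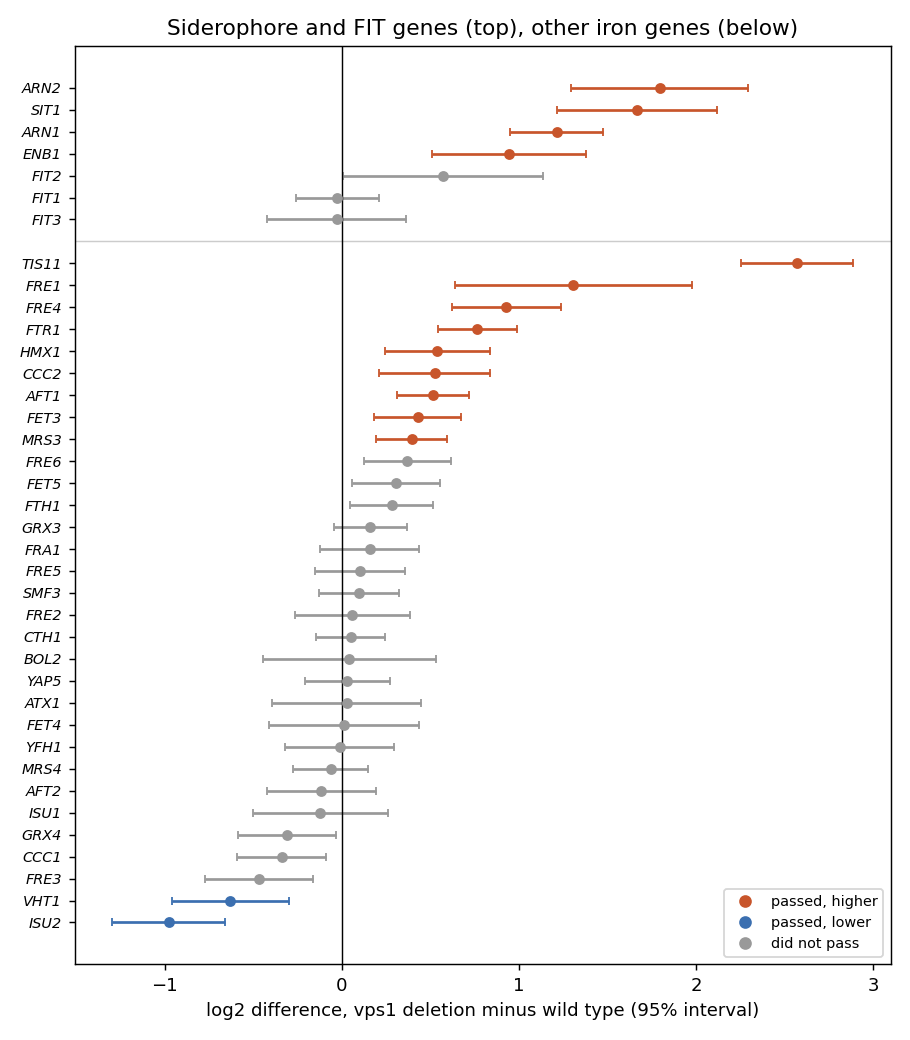
Log2 difference between vps1 deletion and wild type with its 95% interval (horizontal axis) for the 7 siderophore and FIT genes above the line and the 31 other iron genes below it. Orange points passed the test and were higher, blue points passed and were lower, grey points did not pass. The 4 transporters lie at 0.95 to 1.79, beside TIS11 at 2.57 and FRE1 at 1.31, and ISU2 lies lowest at -0.98.

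Along the chromosomes, the 2 measured genes on either side of each of the 7 gave 22 different neighbours outside the group, of which 3 rose, 1 fell and 18 did not pass, with a median difference of 0.04. The shares of all genes are 6.77% higher and 6.28% lower, with a median of -0.04. No neighbour of SIT1 or ARN1 passed. COS8, a membrane protein gene that directly adjoins ARN2 near the end of chromosome VIII, rose by 1.14 ± 0.23 (log2, SE), and HXT11, a hexose transporter gene near ENB1, by 0.85 ± 0.20. Both calls depended on single arrays, as COS8 kept its call without wild type replicate 1 or 2 and HXT11 without wild type replicate 3. FIT2 and FIT3 lie between the reductase genes FRE3 and FRE5 on chromosome XV. FRE5 was below background on all 6 arrays, and YOR385W, on its far side, rose by 1.17 ± 0.14 (limma adjusted p = 0.00190). YOR381W-A, between FRE3 and FIT2, passed as lower but lay below background on every array.

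Genes outside the group were searched for profiles like those of the 4 transporters, by the root mean square difference over the 6 arrays of values set relative to the wild type mean, among 5384 genes above background. Nearest to ARN1 were PRM10 at 0.08, PRM1 at 0.13, both named as pheromone-regulated membrane proteins, and VMR1, a vacuolar ABC transporter, at 0.13. Nearest to SIT1 were YHL009W-B at 0.16, RCH1 at 0.21 and SPG1 at 0.21, and the same genes were nearest to ARN2, with RCH1 at 0.26, YHL009W-B at 0.28 and SPG1 at 0.30. Nearest to ENB1 were CRR1 at 0.16 and NCA3 and ROX3 at 0.19 each. The likeness rests on 6 arrays and mostly on the difference between the strains.

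The calls of the FIT genes changed with the scaling of the arrays. On the values as deposited, where 76.0% of all genes were called higher, all 7 genes passed as higher. There FIT1 lay 0.64 ± 0.09, FIT2 1.13 ± 0.24 and FIT3 0.51 ± 0.17 above wild type (log2, SE), beside the median of 0.51 over all genes and of 0.60 over the hybridization controls. With each array centred on its hybridization controls, FIT1, FIT2 and FIT3 differed by 0.03, 0.53 and -0.09 and did not pass, with an SE of 0.22 that this fit pooled over genes, while the transporters rose by 0.90 to 1.74. The 4 transporters passed as higher under every scaling tried.

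**Figure D4:**
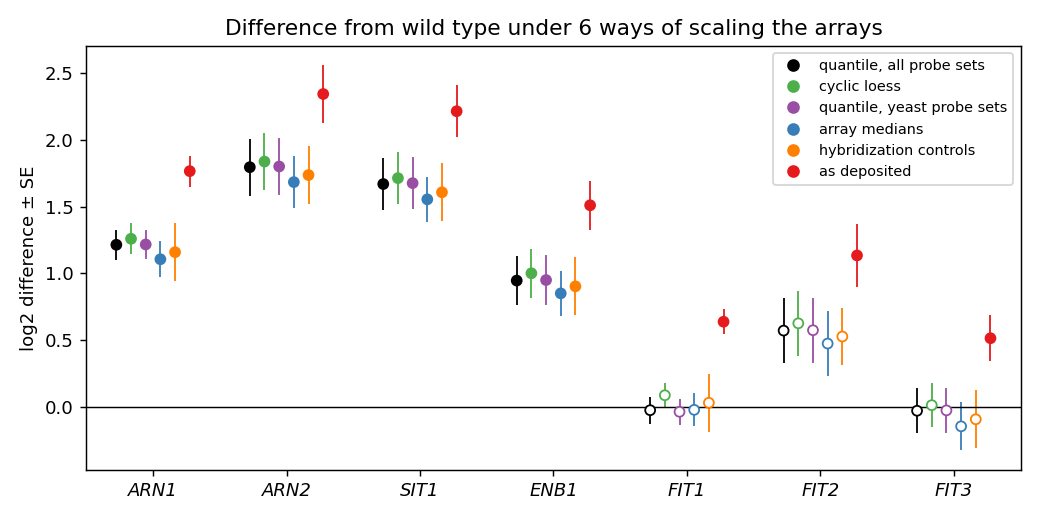
Log2 difference between vps1 deletion and wild type ± SE (vertical axis) for the 7 genes under 6 ways of scaling the arrays, filled where limma's adjusted p is under 0.05 and open otherwise. The transporters are filled throughout, and the FIT genes are filled only for the values as deposited, where the median difference over genes is 0.51.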

How the data were processed

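The deposited log2 values, 1 for each probe set on an array, were made by the authors, whose processing notes list GCOS, RMA and limma. The roles and versions of these tools and the scaling between arrays were not given in the sources used. Per the labels' protocols, 100 ng of total RNA gave the biotinylated cRNA. Of 10928 probe sets, 5498 matched a gene of the yeast gene table (RefSeq R64) through the platform's annotation, and for 47 genes with several the brightest on average was used, giving 5449 genes. The 6 arrays were quantile-normalized over all probe sets and tested with limma 3.58.1 in R 4.3.3 (lmFit, eBayes), after a check of the code on simulated data. Arrays have no read depth, so their number limits the precision.

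The genes, lists and scale were chosen with earlier results of these data known. Named are the 7 genes, VPS1, other iron genes that passed, chromosomal neighbours and the 3 nearest profiles of each gene called. AFT2 and the mating type genes named lie outside this rule and were chosen after their values were seen. Same-numbered cultures share deviations from their strain means (r over genes 0.67, 0.65 and 0.29), by which they were paired. Differently numbered cultures had r from -0.63 to 0.23. The highest of these was for wild type replicate 3 and deletion replicate 2, so the pairing of number 3 is weakly borne out. The r are not independent, as deviations within a strain are taken from the same mean. Alternatives were 5 other scalings, the replicate block, the mean of a gene's probe sets, a filter on background, eBayes with trend and robust, and each array left out. Centring on hybridization controls was added after seeing the data.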

Additional observations from a re-analysis of the deposited data

How the results depend on the processing

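ARN1, ARN2 and SIT1 kept their direction and their call under all 15 alternatives, and ENB1 in all but those without wild type replicate 3 (0.92) and without vps1 deletion replicate 2 (0.92). The mean of a gene's probe sets and the filter on background could not change these differences, as each gene had 1 probe set, above background. The replicate block and eBayes with trend and robust could change only the SE and adjusted p. Leaving out 1 array at a time gave 1.12 to 1.29 for ARN1, 1.64 to 2.04 for ARN2, 1.54 to 1.88 for SIT1, 0.77 to 1.15 for ENB1, -0.073 to 0.044 for FIT1, 0.29 to 0.72 for FIT2 and -0.21 to 0.074 for FIT3, so that FIT1 and FIT3 changed sign without passing. As deposited, FIT1 (0.64), FIT2 (1.13) and FIT3 (0.51) passed, as did 7 of the 7 genes, 26 of the other iron genes higher and 1 lower, and 4142 genes higher and 52 lower. FIT1 and FIT3 were 0.087 and 0.012 under cyclic loess, and FIT1 was 0.030 after centring on hybridization controls. FRE3 and YOR381W-A turned positive as deposited (0.19 and 0.027).

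Counts moved more than the transporters did. The other iron genes numbered 4 higher and 4 lower with arrays centred on their median, 4 higher after centring on hybridization controls, 4 lower under the replicate block, and 4 to 8 higher and 1 to 4 lower with 1 array left out. Over all genes, 369 were higher and 342 lower, against 784 and 892 under the replicate block. They numbered 256 and 535 with arrays centred on their median, and 246 and 185 after centring on hybridization controls. With 1 array left out, 199 to 432 were higher and 123 to 355 lower. The replicate block changed none of the calls of the 7 genes. The causes of these moves were not tested. VPS1 was at least 54.9-fold lower with background at the 99th percentile. The number of arrays limits what the intervals of FIT1, FIT2 and FIT3 can show.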
